A study of Mus musculus with 3 samples.

Results

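The enzymes that make, recycle and finish nucleotides were examined in RNA-seq of mouse T-helper 1 cells, a CD4 T cell subset. A list of 34 genes was set by function: 13 of de novo purine synthesis, 8 of de novo pyrimidine synthesis, 4 of salvage and 9 of deoxynucleotide supply with its folate enzymes. By gene identifier 33 of the 34 matched a row among the 50600 gene rows. The remaining gene, Pnp, is taken up with the salvage enzymes. All samples were T-helper 1 primary cells of strain C57BL/6NJ with age unknown and no treatment named, in 1 group of 3 biological replicates, each with its own biosample record under a shared donor record. The labels point to a CD4 T cell differentiation protocol, and the file headers carry a 16 hr tag. With no second condition, genes were compared within each library and set against the spread between the 3 libraries, which may be in part technical.

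Purines and pyrimidines are built in the cytosol, apart from a mitochondrial step of the pyrimidine route, from amino acids, one-carbon units and phosphoribosyl pyrophosphate (PRPP), the activated sugar. Salvage enzymes return free bases and nucleosides to the nucleotide pool at less cost. Ribonucleotide reductase then turns ribonucleoside diphosphates into deoxy forms, and thymidylate is made with folate cofactors. Lymphocytes draw on the de novo routes when they begin to divide, and inhibitors of several of these enzymes are used as immunosuppressants.

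All 33 genes were detected, at 1 TPM (counts scaled by exon length and by the library sum) or more in every library, against 39.8% of 21764 protein-coding genes. Mean levels ran from 6.45 ± 3.52 TPM for Ctps2 to 158 ± 47.4 TPM for Paics (SD, n = 3). The median gene of the list stood at 55.9, 44.8 and 26.5 TPM in replicates 1, 2 and 3. Over coding genes with a mean of at least 1 TPM the median was 13.6, 12.0 and 7.81 TPM. By route, the median level was 57.0, 48.8 and 29.0 TPM for de novo purine genes in replicates 1, 2 and 3. It was 33.2, 31.8 and 13.0 TPM for de novo pyrimidine genes, 65.1, 46.1 and 32.3 TPM for the 3 salvage genes and 37.9, 32.0 and 18.6 TPM for deoxynucleotide supply. Every route held genes of high and of low level, so the routes overlapped. In CPM (counts scaled to the library total), with no scaling by length, the salvage median was the lowest of the routes.

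The gene counts summed to 4764598, 2568928 and 2815439 in replicates 1, 2 and 3, and the 33 genes held 18370, 8949 and 6340 of them. A level of 1 TPM stood for 2.25, 1.28 and 1.59 counts per kilobase. The cell type label was checked against markers. All 10 T cell genes were detected, Cd4 among them, with a summed level of 942 to 1944 TPM. Of 8 T-helper 1 genes, with a summed level of 20.6 to 23.7 TPM, Stat4 and Il12rb2 were detected. Il12rb2, which shares 1519 exon bases with the opposite strand, made up 14.4, 15.5 and 15.1 TPM of that sum. The defining genes Tbx21 and Ifng had 2, 10 and 2 counts and 1, 0 and 0 counts, at or near 0 in every library except 1 for Tbx21. Other cell types had 0 of 4 B cell, 1 of 5 myeloid, 0 of 3 NK, 0 of 3 dendritic, 1 of 2 CD8, 1 of 3 erythroid and 1 of 4 stromal or epithelial genes detected, with summed levels of up to 137 TPM, reached in the myeloid list. In that list Csf1r, which shares 871 exon bases with the opposite strand, held all counts and the other 4 genes had 0. Cd8b1, which shares no exon bases with the opposite strand, had 97, 15 and 36 counts (29.0, 7.93 and 15.3 TPM), and Cd8a had 0. The B cell gene Cd79a had 27, 0 and 17 counts (8.22, 0 and 7.34 TPM), and the other 3 B cell genes had 0. The part of these cell types in the enzyme levels was not tested, and in such bulk samples fewer cells of a type and less RNA per cell cannot be told apart. Genes whose exons overlap exons of the opposite strand held 56.1% to 71.6% of all counts. The headers record strand setting 1, and the orientation of the library kit is not given in the sources used here. Reads of a gene's own strand and reads from the other strand therefore cannot be told apart in these counts. Every level given here, above and below, is a level of counts under that setting. If the setting is opposite to the library, the counts of a gene may be a small part of its reads, and this was not tested.

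Replicate 3 gave the lowest TPM for 31 of the 33 genes, against 67.5% of 9932 coding genes with a mean of at least 1 TPM. Replicate 1 gave the highest TPM for 23, against 57.0%. Part of this is a shift shared by the library. The median deviation of all such coding genes from their own mean was 0.32, 0.11 and -0.41 on the log2(TPM + 1) scale in replicates 1, 2 and 3. In CPM after TMM scaling, which evens out such shifts, replicate 3 was lowest for 25 of 33 genes, against 44.4%.

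**Figure D1:**
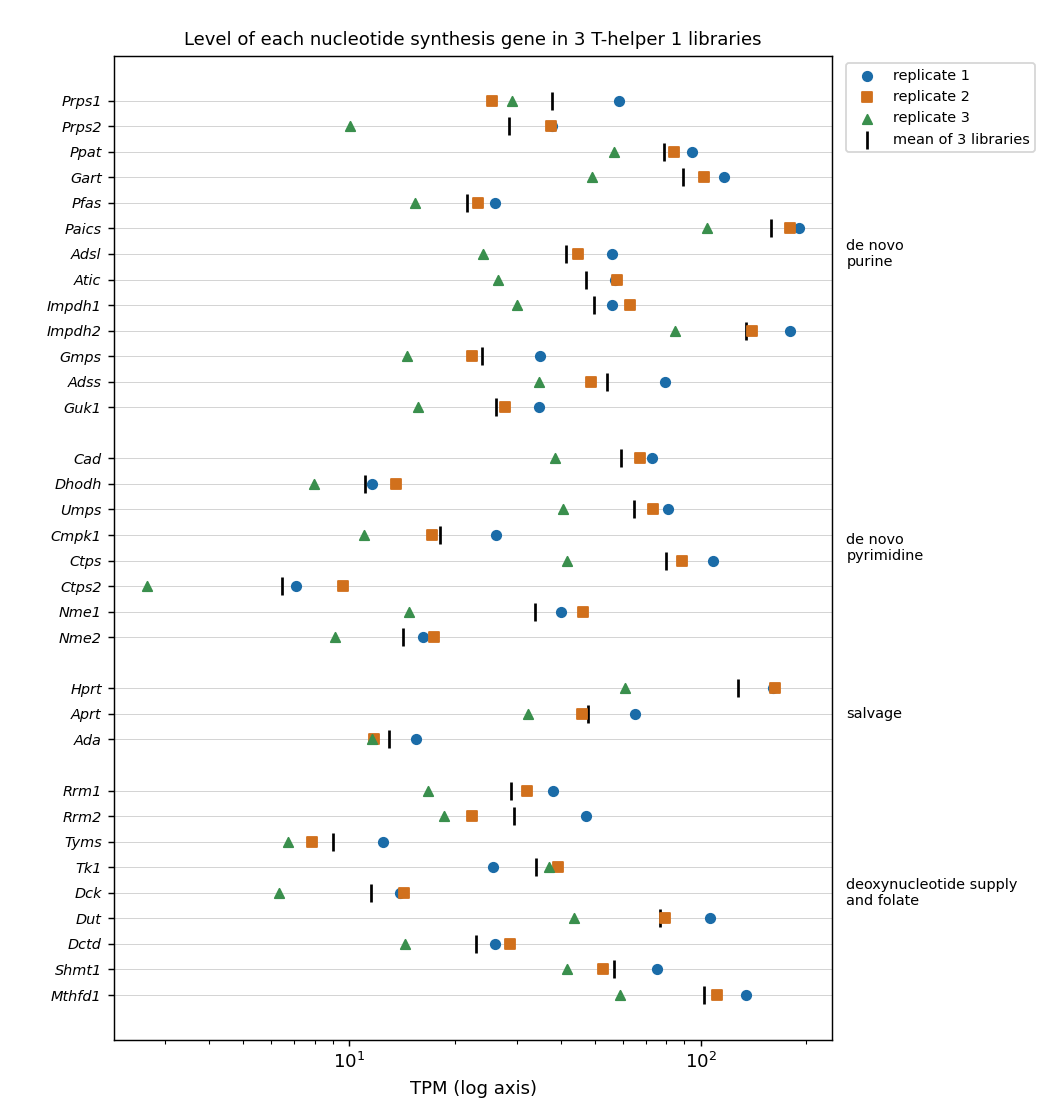
TPM (log axis) of the 33 nucleotide synthesis genes in each of the 3 libraries, grouped by route, with a vertical bar at the mean. Paics and Impdh2 lie at the right with Hprt, Ctps2 lies at the left, and replicate 3 is the lowest library for 31 genes.

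Promoter sequences are shown for 4 genes, Ppat, Paics, Atic and Tk1. Ppat and Paics share their start region, and Atic holds all the motifs searched. The promoter sequence of Tk1 runs into an exon of another gene. Ppat and Paics, which catalyse the committed step and a later double reaction of purine synthesis, lie head to head on chromosome 5, and their first exons overlap by 272 bases. RefSeq promoters (GRCm38.p6, the build of the mm10 files) hold 250 bases before and 50 after each start, given 5′ to 3′ on the gene's strand. Capitals mark matches to CACGTG (the E-box bound by Myc), GCGGGAA or GCGCGAA (E2F-like) and CCAAT, on either strand. Ppat is on the minus strand at chr5:76951529-76951828, Paics on the plus strand at chr5:76951052-76951351, and Atic on the plus strand at chr1:71556906-71557205.
Ppat: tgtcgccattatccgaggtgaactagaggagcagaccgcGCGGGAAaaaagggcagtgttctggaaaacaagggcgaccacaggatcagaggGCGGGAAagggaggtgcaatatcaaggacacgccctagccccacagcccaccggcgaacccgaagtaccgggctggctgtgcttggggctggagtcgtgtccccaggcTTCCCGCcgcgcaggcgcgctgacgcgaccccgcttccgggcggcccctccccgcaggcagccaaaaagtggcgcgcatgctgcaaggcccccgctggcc
Paics: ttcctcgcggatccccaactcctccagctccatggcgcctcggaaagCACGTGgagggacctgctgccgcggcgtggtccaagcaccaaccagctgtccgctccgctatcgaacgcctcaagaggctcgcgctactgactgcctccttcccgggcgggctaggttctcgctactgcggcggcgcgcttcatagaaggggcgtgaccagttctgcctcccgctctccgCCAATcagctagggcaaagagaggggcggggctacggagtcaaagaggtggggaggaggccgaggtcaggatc
Atic: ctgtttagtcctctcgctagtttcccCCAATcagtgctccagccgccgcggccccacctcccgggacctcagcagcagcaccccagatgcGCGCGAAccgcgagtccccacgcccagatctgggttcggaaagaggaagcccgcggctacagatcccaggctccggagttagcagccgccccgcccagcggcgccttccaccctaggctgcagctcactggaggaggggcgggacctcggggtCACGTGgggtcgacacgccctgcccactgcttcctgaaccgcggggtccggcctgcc
The Ppat window held the E2F-like letters at 3 positions, and the Paics window held CACGTG and CCAAT once each. RefSeq windows were found for 32 of the 34 listed genes. Where several windows are listed for a gene, such as 2 for Nme1 and 3 for Dctd, only the first was searched. CACGTG occurred in 5 of the 32 (Paics, Atic, Impdh2, Nme1 and Tyms, 15.6%), against 7.90% of 17491 protein-coding promoters. The E2F-like letters occurred in 6 of 32 (Prps1, Prps2, Ppat, Atic, Rrm1 and Mthfd1, 18.8%), against 7.83%. CCAAT occurred in 14 of 32 (43.8%), against 39.0%. No 2 matches shared a base in these windows. These matches are a description of letters, not of binding.

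In Tk1 the promoter window runs into an exon of the opposite gene Afmid. The window lies on the minus strand at chr11:117825965-117826264, and its capitals mark the 42 bases that are also exon of the other strand.
Tk1: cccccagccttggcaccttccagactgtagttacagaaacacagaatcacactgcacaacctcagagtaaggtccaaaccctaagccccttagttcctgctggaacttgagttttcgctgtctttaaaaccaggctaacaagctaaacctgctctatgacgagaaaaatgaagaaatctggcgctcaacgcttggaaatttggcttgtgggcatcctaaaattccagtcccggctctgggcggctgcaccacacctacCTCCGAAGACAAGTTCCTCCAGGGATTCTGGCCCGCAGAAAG
The windows of Umps and Mthfd1 lie wholly, over 300 bases each, in exons of the opposite noncoding genes Gm15829 and Gm47525.

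Purine synthesis starts from PRPP, made by the synthetases Prps1 and Prps2, both on chromosome X. Prps1 had 58.5, 25.6 and 29.0 TPM in replicates 1, 2 and 3 (263, 65 and 92 counts). Prps2 had 37.9, 37.6 and 10.1 TPM (331, 186 and 62 counts). Prps1 was above Prps2 in replicates 1 and 3 and below it in replicate 2, with log2 ratios of 0.61, -0.54 and 1.44. The mean log2 ratio was 0.50 ± 0.99 (SD, n = 3), with p = 0.5 and a Benjamini-Hochberg adjusted p = 0.571 over 8 ratios in a two-sided exact sign-flip permutation test. It was 1.03 without replicate 2 and 0.04 without replicate 3, and in CPM, with no scaling by length, it was -0.42. Prps1 and Prps2 thus did not keep an order across the libraries.

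Paics, a carboxylase and synthetase in one protein, was the highest of all 33 genes by mean. Its gene lies on chromosome 5 from 76951307 to 76967509 (mm10). It had 191, 179.8 and 104 TPM and ranked 500 of 21764 coding genes. Ppat, the amidotransferase of the committed step, had 94.8, 84.0 and 56.9 TPM. Paics exceeded Ppat in all 3 libraries, at 431, 229 and 165 counts per kilobase for Paics and 214, 107 and 90.5 for Ppat in replicates 1, 2 and 3. With the library shift removed, Ppat varied little between libraries, with deviations of -0.02, 0.02 and -0.02 on the log2 scale.

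Between these steps, Gart, which carries several enzyme activities, had 116, 102 and 49.0 TPM. Pfas, the amidotransferase that follows, had 26.1, 23.3 and 15.4 TPM and was the lowest purine gene by mean. It shares 39 exon bases with the same-strand Mir3062. Adsl, the lyase used again in the adenine branch, had 55.9, 44.8 and 24.0 TPM. Atic, which closes the ring to inosine monophosphate (IMP), had 57.0, 58.0 and 26.5 TPM. Gart and Paics thus stood above Pfas, Adsl and Atic in every library.

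From IMP the route forks to guanine and adenine nucleotides. Impdh2 and Impdh1, the dehydrogenases of the guanine branch and the target of mycophenolic acid, differed in level. Impdh2 had 179.8, 139.9 and 84.4 TPM (mean 135 ± 47.9). Impdh1 had 56.1, 63.1 and 30.0 TPM (mean 49.7 ± 17.5). Impdh2 was higher in all 3 libraries, with log2 ratios of 1.66, 1.14 and 1.46 and a mean of 1.42 ± 0.26 (SD, n = 3). The exact sign-flip p was 0.25, the smallest that 3 libraries allow, and 0.333 after adjustment over 8 ratios. Over pooled counts the length-scaled ratio was 2.82 (exact 95% counting interval 2.60 to 3.06), an interval of counting error only. Gmps, the next enzyme of that branch, had 34.9, 22.3 and 14.7 TPM. Guk1, the guanylate kinase, had 34.8, 27.8 and 15.8 TPM. Adss, the first enzyme of the adenine branch, had 79.4, 48.8 and 34.7 TPM, above Gmps and Guk1 in every library. Impdh2 thus had the highest TPM of either branch in every library.

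The pyrimidine route begins with Cad, which carries the opening activities, continues through the mitochondrial enzyme Dhodh and ends with Umps. Cad had 72.8, 67.3 and 38.7 TPM (1344, 702 and 503 counts). Dhodh had 11.6, 13.6 and 7.95 TPM (166, 110 and 80 counts). Umps had 80.7, 73.1 and 40.6 TPM (634, 325 and 225 counts). Dhodh stood below Cad and Umps in every library, with no overlap between its range and theirs. Dhodh is the target of leflunomide and brequinar.

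Beyond uridine monophosphate, Cmpk1, which phosphorylates UMP and CMP, had 26.2, 17.2 and 11.0 TPM. Ctps, the CTP synthase that human T cells need to expand, had 108, 88.4 and 41.7 TPM. Its relative Ctps2, on chromosome X, had 7.05, 9.63 and 2.67 TPM (75, 58 and 20 counts). Ctps exceeded Ctps2 in all 3 libraries, with log2 ratios of 3.77, 3.07 and 3.54, a mean of 3.46 ± 0.35 (SD, n = 3) and an exact sign-flip p = 0.25 (adjusted p = 0.333). Its pooled length-scaled ratio was 13.1 (exact 95% counting interval 11.1 to 15.5). This was the largest of the 8 ratios computed.

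Nme1 and Nme2, neighbouring nucleoside diphosphate kinases on the minus strand of chromosome 11, were both detected. Nme1 had 40.2, 46.2 and 14.9 TPM. Nme2 had 16.3, 17.4 and 9.13 TPM (43, 26 and 17 counts). Nme1 was higher in all 3 libraries, with log2 ratios of 1.25, 1.36 and 0.65 and a mean of 1.09 ± 0.38 (SD, n = 3) (exact sign-flip p = 0.25, adjusted p = 0.333). Both genes share exons with the same-strand gene Gm20390, over 418 of 3342 exon bases in Nme1 and 573 of 1171 in Nme2. The recorded command has no option to count read pairs that fall in more than 1 gene, and Gm20390 had 0 counts in each library. With shared bases left out of the gene lengths, a setting chosen after the data were seen, the mean log2 ratio was 0.35, and in CPM it was 2.51. The levels of Nme1 and Nme2 are uncertain for this reason.

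Salvage was represented by Hprt, Aprt and Ada. Hprt, which returns hypoxanthine and guanine to nucleotides, had 160.3, 162 and 61.0 TPM (466, 267 and 125 counts). Aprt, which does so for adenine, had 65.1, 46.1 and 32.3 TPM. Ada, which deaminates adenosine and whose loss causes immunodeficiency in humans, had 15.5, 11.7 and 11.6 TPM (70, 30 and 37 counts). Hprt exceeded Aprt and Aprt exceeded Ada in every library. Hprt has 1289 exon bases, so its level rests on fewer counts than that of Mthfd1 (1352, 633 and 418 counts).

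Pnp, which splits inosine and guanosine, matched no row under GENCODE vM21 names and is not analysed here. The row Gm49342 on chromosome 14 starts at 50944302, and the RefSeq start of Pnp is 50944303. Gm49342 had 91, 87 and 24 counts, against 950, 465 and 738 for the opposite-strand Gm38316, with which it shares 356 exon bases. Gm49342 reaches 50965237, beyond the RefSeq end of Pnp at 50953412, so its counts are not given as those of Pnp. The counts were made with GENCODE vM13, in which this row may have carried the name Pnp, and vM13 was not used here.

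Deoxynucleotide supply rests on ribonucleotide reductase, made of the large subunit Rrm1 and the small subunit Rrm2, and Rrm2 is made mainly in dividing cells. Rrm1 had 37.9, 32.0 and 16.8 TPM (942, 450 and 294 counts). Rrm2 had 47.4, 22.3 and 18.6 TPM (296, 79 and 82 counts). Their log2 ratios were -0.31, 0.50 and -0.14, with a mean of 0.02 ± 0.43 (SD, n = 3) and an exact sign-flip p = 1 (adjusted p = 1). Rrm1 was above Rrm2 in replicate 2 only, and the mean was -0.23 without that replicate. The difference between the subunits was thus smaller than the spread between libraries. In CPM the log2 ratio was 1.98, since Rrm1 has 11012 exon bases and Rrm2 2771.

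Of the enzymes that shape the thymidylate pool, Dut, which removes dUTP, was the highest at 106, 79.4 and 43.6 TPM. Dctd, the deoxycytidylate deaminase, had 26.0, 28.7 and 14.4 TPM. Tyms, which makes thymidylate and is the target of fluorouracil, was the lowest by mean at 12.5, 7.85 and 6.71 TPM (172, 61 and 65 counts). Dut exceeded Tyms in every library with no overlap between their ranges. Dck, the deoxycytidine kinase, had 14.0, 14.3 and 6.32 TPM (119, 69 and 38 counts), below Tyms in replicate 3.

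Tk1, the cytosolic thymidine kinase, on chromosome 11 from 117815526 to 117826092, went against the order of libraries seen in most genes. It had 25.7, 39.4 and 37.1 TPM (301, 261 and 307 counts). Tk1 was the single gene of the 33 with its lowest TPM in replicate 1. In TMM CPM it had 57.7, 97.5 and 129.9. On that scale Tk1 and Ada were the 2 genes of the list with their highest value in replicate 3. The share was 26.2% of coding genes with a mean of at least 1 TPM. The log2 ratio of Tk1 to Dck was 0.83 in replicate 1 and 2.38 in replicate 3, with replicate 2 between them and all 3 above 0, with a mean of 1.54 ± 0.78 (SD, n = 3) (exact sign-flip p = 0.25, adjusted p = 0.333). The size of the ratio differed between libraries more than for any other pair except Prps1 and Prps2. All 5198 exon bases of Tk1 lie within the body of the opposite-strand gene Gm20708, which had 2, 0 and 0 counts, and 83 of them are exon of Afmid.

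The folate enzymes Shmt1, which loads one-carbon units from serine, and Mthfd1, which converts them for purine and thymidylate synthesis, act in the cytosol. Shmt1 had 75.4, 52.9 and 41.6 TPM. Mthfd1 had 135, 112 and 59.2 TPM. Their mitochondrial relatives came from a list of 58 other nucleotide genes. Shmt2 had 176, 118 and 92.4 TPM. Mthfd2 had 95.8, 62.9 and 39.9 TPM. Shmt2 exceeded Shmt1 in all 3 libraries, with log2 ratios of 1.22, 1.14 and 1.13 and a mean of 1.16 ± 0.05 (SD, n = 3). Mthfd2 was below Mthfd1 in all 3, with log2 ratios of -0.49, -0.82 and -0.56 and a mean of -0.62 ± 0.17 (SD, n = 3). Each had an exact sign-flip p = 0.25, the smallest possible, and an adjusted p = 0.333. The Shmt2 to Shmt1 ratio had the smallest spread of the 8, and its pooled length-scaled value was 2.29 (exact 95% counting interval 2.13 to 2.46).

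**Figure D2:**
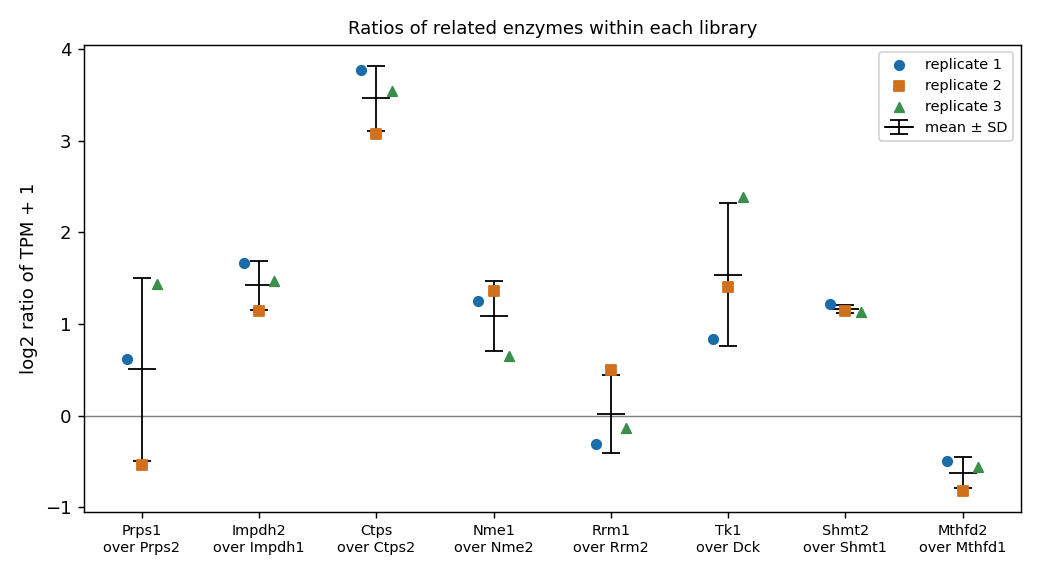
Log2 ratio of TPM + 1 between related enzymes in each of the 3 libraries, with the mean and SD as black bars and a grey line at 0. Ctps over Ctps2 is the largest at 3.46, Shmt2 over Shmt1 is the tightest, and the points of Prps1 over Prps2 and of Rrm1 over Rrm2 fall on both sides of 0.

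Exons of 8 of the 33 genes (24.2%) overlapped exons of the opposite strand, against 32.9% of coding genes with a mean of at least 1 TPM and 22.1% of all coding genes. They were Ppat, Paics, Gart, Impdh2, Umps, Tk1, Shmt1 and Mthfd1. With introns of the other gene included, 10 of the 33 genes had exon bases within an opposite-strand gene, against 27.1% of coding genes. This adds Aprt, with all of its 1615 exon bases, and Prps2, with 125 of 3873. On this count Mthfd1 had 1999 of its 4442 exon bases within an opposite-strand gene, against 37 by exons alone. Gart had 952 of 3992, against 676 by exons alone. The median TPM of the 8 genes was 106, 93.1 and 53.0 in replicates 1, 2 and 3, and that of the other 25 genes was 37.9, 28.7 and 15.8. Over coding genes with a mean of at least 1 TPM the medians were 18.1, 17.3 and 12.9 with such overlap and 11.8, 10.2 and 6.35 without it. The overlapped genes thus stood higher in the list and among coding genes alike, and the part of the overlap in their level was not tested.

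The noncoding partners of Gart and Umps had far more counts than the enzymes. Gart, on chromosome 16 from 91621186 to 91646952, which shares 676 exon bases with Gm15964 near its 3′ end, had 262, 130.3 and 77.9 counts per kilobase in replicates 1, 2 and 3, against 2709, 1572 and 2165 for Gm15964. Umps, on chromosome 16 from 33954782 to 33967038, which shares 213 bases with Gm15829 at its 5′ end, had 182, 93.3 and 64.6, against 2312, 1003 and 2037 for Gm15829. The partner's level was 10.3, 12.1 and 27.8 times that of Gart and 12.7, 10.8 and 31.5 times that of Umps. In both pairs the ratio was largest in replicate 3, the library with the largest share of counts on overlapping genes.

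The other partners, coding genes and the noncoding Gm47525, did not stand so far above their enzymes. Impdh2, which shares 48 bases with Ndufaf3, a complex I assembly factor gene, had 405, 178 and 134 counts per kilobase, against 225, 126 and 151 for Ndufaf3. Impdh2 was thus higher in replicates 1 and 2 and lower in replicate 3. Shmt1, which shares 184 bases with Smcr8, had 170.0, 67.5 and 66.2, against 68.5, 37.9 and 42.3 for Smcr8. Tk1 had 57.9, 50.2 and 59.1, against 25.4, 15.5 and 21.2 for Afmid, a kynurenine formamidase gene. Mthfd1, which shares 37 bases with the promoter noncoding gene Gm47525, had 304, 143 and 94.1, against 41.4, 25.9 and 44.0 for Gm47525. Per kilobase, Shmt1, Tk1 and Mthfd1 exceeded their partners in all 3 libraries, while Gart and Umps were below theirs in all 3. In counts, not scaled by length, Shmt1 had 660, 262 and 257, against 553, 306 and 342 for Smcr8, so this order turned in replicates 2 and 3.

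**Figure D3:**
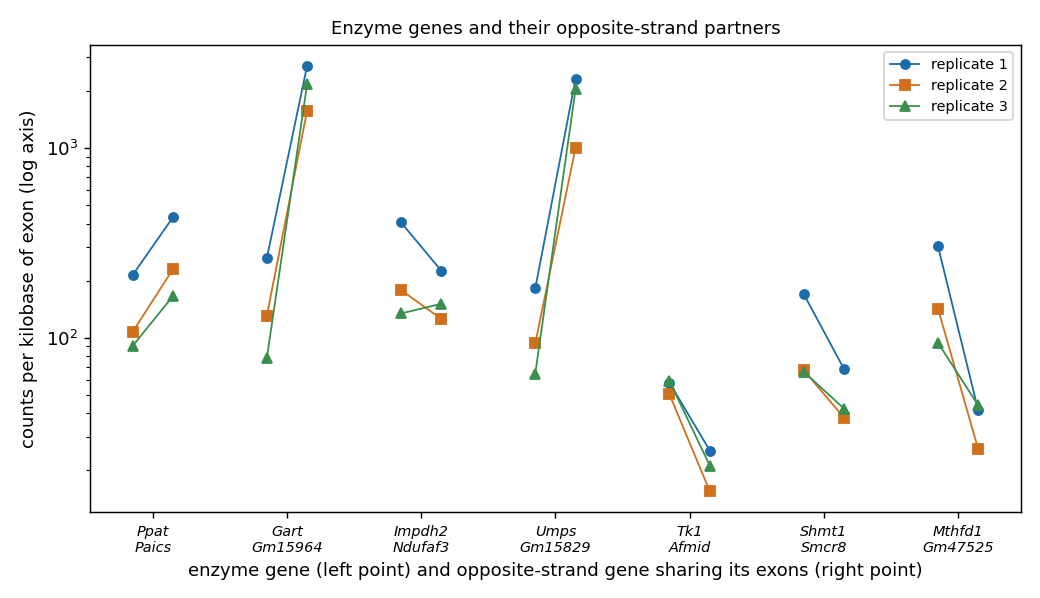
Counts per kilobase of exon (log axis) for 7 pairs of an enzyme gene (left point) and the opposite-strand gene that shares exon bases with it (right point), with 1 line per library. Gm15964 and Gm15829 lie above all other points in every library, over their enzymes Gart and Umps, while Afmid, Smcr8 and Gm47525 lie below theirs.

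The spread between libraries of single genes was mostly shared. The median SD of log2(TPM + 1) was 0.588 over the 33 genes and 0.524 over coding genes with a mean of at least 1 TPM. With the library shift removed, a setting added after the data were seen, it was 0.243 and 0.350. With the shift left in but without replicate 3, the median SD was 0.192 over the 33 genes. The median biological coefficient of variation by edgeR was 0.290 over the 33 genes and 0.305 over coding genes, and no test was made of either difference. These edgeR values are drawn towards a trend shared across genes, so they say little of each gene's own spread. By this measure Ppat had 0.285 and Prps2 had 0.307. Prps2, with an SD of 1.04, was the single gene of the list above 1, against 7.50% of coding genes with a mean of at least 1 TPM. With the shift removed, Pfas (SD 0.0328) and Ppat (SD 0.0239) varied least, and Prps2 (0.692) and Tk1 (0.633) most.

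**Figure D4:**
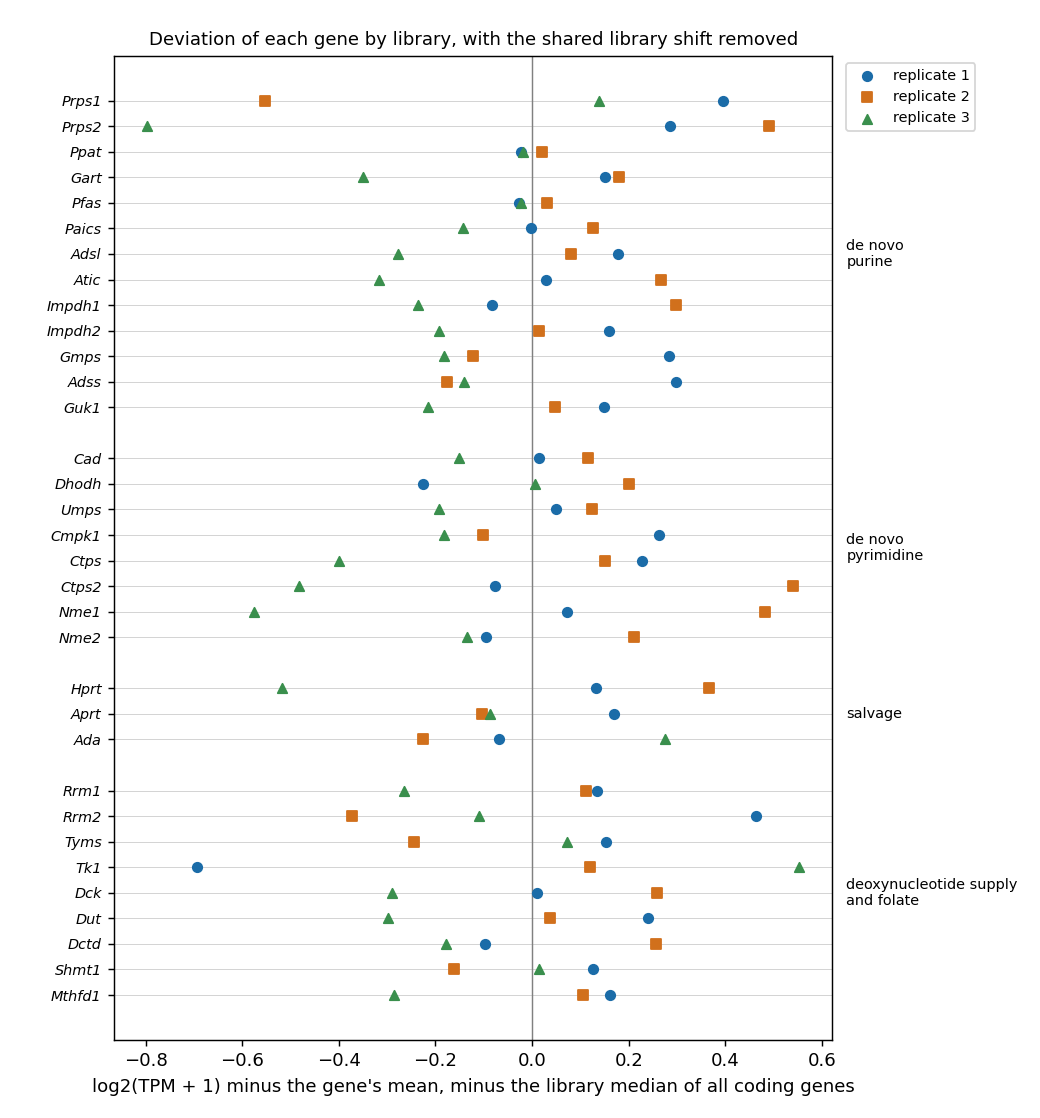
Deviation of log2(TPM + 1) from each gene's own mean, less the library's median deviation over coding genes, for the 33 genes in each of the 3 libraries. Tk1 lies at -0.69 in replicate 1 and 0.55 in replicate 3, Prps2 lies at -0.80 in replicate 3, and Ppat and Pfas lie close to 0 in all 3.

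The 58 other nucleotide genes, of kinases, one-carbon and serine metabolism, breakdown and salvage, were detected in part. Of these, 37 were detected, 17 were under 1 TPM in every library and 4 were on both sides, against the 39.8% of coding genes detected. Among the highest were Psph, a serine synthesis phosphatase (291, 217 and 388 TPM), Gmpr2, a GMP reductase (152, 157 and 159.8 TPM), Dctpp1, which removes dCTP (165, 169 and 78.2 TPM), Shmt2, and Phgdh, which begins serine synthesis (102, 108 and 58.4 TPM). Psph and Shmt2 share 452 and 32 exon bases with the opposite strand. Psph and Gmpr2 had their highest TPM in replicate 3, as did 0 of the 33 enzymes. The share was 10.3% of coding genes with a mean of at least 1 TPM. It was 21.8% of such coding genes with opposite-strand exon overlap and 4.65% of those without it.

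The 17 genes under 1 TPM in every library compare with 51.1% of coding genes. Some take part in breakdown, as do detected genes of the list such as Nt5c (93.0, 64.6 and 47.4 TPM) and Samhd1 (15.7, 9.00 and 7.08 TPM). Dpyd, Dpys and Upb1, the chain that degrades uracil and thymine, had 0 counts in each library, as did the uridine phosphorylases Upp1 and Upp2, the cytidine deaminase Cda and the guanine deaminase Gda. Ak1, a cytosolic adenylate kinase, and Cmpk2, a mitochondrial UMP and CMP kinase, also had 0 counts. Counting error alone allows 3 counts where 0 are seen. In the library where it is loosest that is 0.265 TPM for Dpyd, 1.20 for Upp1 and 2.27 for Cda. Xdh, the xanthine dehydrogenase, Aldh1l1 and Pnp2 had 1 count in replicate 1 and Ampd1 had 1 in replicate 3. Nme3, Adssl1 and Mthfd2l had from 0 to 8 counts per library. These genes were thus near the floor of the measurement, while each of the 33 enzymes had at least 17 counts in every library. Nme3 has 577 of 876 exon bases in exons of the opposite strand, and Aldh1l1 has 499 of 4516. All 6792 exon bases of Upb1 lie within an opposite-strand gene. The part of these overlaps in the low counts was not tested.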

How the data were processed

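Total RNA-seq of 3 T-helper 1 samples was used, 1 group, with replicates numbered as in the labels. The assay is called total RNA in the labels, and the linked library protocol carries poly(A) in its name. The authors deposited whole-number counts of read pairs for each gene. Per the file headers, featureCounts v1.4.6-p4 made them from mm10 alignments and GENCODE vM13 exons, with strand setting 1 and both mates aligned. Gene lengths in bases were deposited in the same tables. The library kit is not given in the sources used here. Of 50600 identifiers 50376 were named from GENCODE vM21. Unnamed rows held 0.209% to 0.326% of counts.

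TPM was computed from counts and lengths, and log2 values used a pseudocount of 1. Exon overlaps of at least 1 base came from the deposited coordinates. Ratios of 8 gene pairs were tested within libraries with two-sided exact sign-flip permutation over the 3 libraries. The biological coefficient of variation came from edgeR 4.0.16 with TMM, filterByExpr and an intercept alone, checked on simulated counts. The members, the lists, the pairs and the rule that names all members were chosen with earlier results of these data known. The rule names, of the other nucleotide genes, the 6 highest, those in the ratios and those under 1 TPM, and 2 genes that it names are not reported here. Intervals and floors cover counting error only. Alternatives were other pseudocounts, floors, units, scalings, DESeq2 1.42.0 dispersions and each replicate left out. Python 3.11.15, pandas 2.3.3, SciPy 1.17.1 and R 4.3.3 were used.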

Additional observations from a re-analysis of the deposited data

How the results depend on the processing

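Of the 8 ratios, 6 kept their sign under every alternative run. In CPM, Prps1 over Prps2 was -0.42, and Rrm1 over Rrm2 was -0.23 without replicate 2. Over all replicates left out in turn, Prps1 over Prps2 ranged from 0.04 to 1.03 and Rrm1 over Rrm2 from -0.23 to 0.18. The number of members detected was 32 to 33, or all 23 that could be counted over genes whose exons meet no opposite-strand gene, where 23 of the 37 other nucleotide genes that could be counted were detected. At a floor of 5 TPM 5753 coding genes were detected. In CPM, the median log2 level was 6.38 over the members, 6.76 for purine, 5.49 for pyrimidine, 5.28 for salvage and 6.17 for deoxynucleotide genes. Salvage was thus the lowest route in CPM. In TPM salvage was the highest by mean, at 5.55 ± 0.49 against 5.47 ± 0.50 for purine (SD, n = 3). This gap is within the spread, and in replicate 2 purine was higher, at 48.8 against 46.1 TPM. TPM over genes without opposite-strand exon overlap is a larger scale by construction. It also leaves out 4 purine, 1 pyrimidine and 3 deoxynucleotide members. The median there was 6.56 over the 25 members left, 7.07 for purine, 5.98 for pyrimidine, 7.39 for salvage and 6.40 for deoxynucleotide genes. Scale and gene set both differ from the main setting, so these medians cannot be compared directly with the main ones. The median SD of 0.588 was 0.287 with TMM, 0.25 with DESeq2 size factors, 0.280 over members without opposite-strand exon overlap with TPM over such genes (added after the data were seen; 0.596 on the unchanged scale), 0.243 relative to all coding genes (also added) and between 0.192 and 0.760 when a replicate was dropped. By DESeq2, with dispersions taken gene by gene and not drawn together, the median coefficient of variation was 0.156. The share of counts on the members was 0.320%, and of TPM 0.164%. For these shifts the cause was not tested, apart from what each setting states. DESeq2 dispersion was not run for the SD, to which it does not apply. No paired analysis was possible because there is 1 group.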

Other observations

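The 4 members on chromosome X, Prps1, Prps2, Ctps2 and Hprt, were among the 7 members with the largest spread between libraries once the library shift was removed. This was seen after the values and was not tested. Their SD of the shifted log2(TPM + 1) ranged from 0.457 to 0.692 with a median of 0.503, against a median of 0.237 over the other 29 members. Over coding genes with a mean of at least 1 TPM the median was 0.363 for 298 genes on chromosome X and 0.349 for 9623 genes on numbered chromosomes. In replicate 2 the deviation was 0.49 for Prps2, 0.54 for Ctps2 and 0.37 for Hprt. In replicate 3 it was -0.80, -0.48 and -0.52 for the same genes. Prps1 differed from them, with -0.55 in replicate 2 and 0.14 in replicate 3. The libraries differ in Xist, the noncoding RNA of the inactive X chromosome, with 807, 1110 and 4 counts in replicates 1, 2 and 3, and its part in these values was not tested.

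Of the 39 other nucleotide genes with a mean of at least 1 TPM, 4 had their highest TPM in replicate 3 (Psph, Gmpr2, Tymp and Aldh1l2). This share was no larger than the 10.3% of coding genes with such a mean. Of these 3 overlap exons of the opposite strand. Among coding genes with a mean of at least 1 TPM, replicate 3 was highest for 21.8% with such overlap and 4.65% without it.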
